A study of Homo sapiens with 60 samples.

Results

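Ethanol extracts of Cimicifugae Rhizoma and Citri Unshius Pericarpium, both herbal drug materials, were compared at the same dose of 500 µg/mL in HepG2 cells. The comparison used 3 libraries of each extract, 6 of the 60 libraries in the series, picked by extract, dose and title set and not by any measured value. HepG2 is an established line from a human liver tumour in which many hepatocyte genes stay active. The series exposed these cells for 24 h to several extracts, 25 groups in all. The same 2 extracts at 100 µg/mL and 20 µg/mL, with 3 libraries each and in the same title set, and 3 vehicle libraries in a set of their own were read beside them. The top dose of an extract was the one giving 20% growth inhibition where that lay under 500 µg/mL, and 500 µg/mL otherwise. The vehicle label names 0.1% DMSO and the series text 2%, and which applied was not settled here. Whether replicates came from separate cultures is not labelled, and the p-values rest on variation among libraries that could be technical only.

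Among the gene lists read here, those with the largest median differences between the extracts belong to 3 sensor systems. The lists were chosen with earlier results of these data known, and genes outside them were not sorted by system. The aryl hydrocarbon receptor (AhR) binds planar ligands, many of them of plant origin, and switches on xenobiotic-oxidising enzymes such as CYP1A1. NRF2, held back by KEAP1 until electrophiles or oxidants modify that protein, drives glutathione synthesis, aldo-keto reductases, haem breakdown and iron storage. Metallothioneins are small cysteine-rich proteins that bind zinc and copper, and the zinc-sensing factor MTF1 controls them together with the zinc exporter SLC30A1.

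The promoters of 4 genes that carried these differences are shown because each holds the letters of an element through which its sensor is known to act. They were read from RefSeq on GRCh38.p14 and span 250 bases before to 50 bases after the gene start, written along the gene's strand. Capitals mark the AhR element core GCGTG in CYP1A1 (chr15:74725479-74725778, minus strand), in either orientation. In GCLM (chr1:93909381-93909680, minus strand) they mark the antioxidant element core TGACNNNGC, read here on the opposite strand. In MT1X (chr16:56682220-56682519, plus strand) and MT2A (chr16:56608334-56608633, plus strand) they mark the metal element TGCNCNC on either strand.
CYP1A1 promoter: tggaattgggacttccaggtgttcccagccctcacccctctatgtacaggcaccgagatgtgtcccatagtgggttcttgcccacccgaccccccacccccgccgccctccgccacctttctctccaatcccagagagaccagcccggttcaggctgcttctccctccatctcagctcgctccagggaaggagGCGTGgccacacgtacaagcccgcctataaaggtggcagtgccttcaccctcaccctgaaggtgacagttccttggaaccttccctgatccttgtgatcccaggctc
GCLM promoter: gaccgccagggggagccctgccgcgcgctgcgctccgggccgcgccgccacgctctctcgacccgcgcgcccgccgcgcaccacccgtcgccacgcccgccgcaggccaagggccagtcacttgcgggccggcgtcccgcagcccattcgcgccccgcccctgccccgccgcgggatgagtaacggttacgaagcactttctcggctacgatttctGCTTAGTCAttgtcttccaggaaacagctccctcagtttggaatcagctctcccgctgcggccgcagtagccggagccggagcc
MT1X promoter: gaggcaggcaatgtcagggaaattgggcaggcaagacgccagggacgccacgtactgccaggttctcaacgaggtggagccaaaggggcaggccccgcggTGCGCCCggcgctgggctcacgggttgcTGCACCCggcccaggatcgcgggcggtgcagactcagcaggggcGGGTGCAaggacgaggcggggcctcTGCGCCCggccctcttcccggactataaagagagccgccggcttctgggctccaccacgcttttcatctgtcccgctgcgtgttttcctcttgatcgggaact
MT2A promoter: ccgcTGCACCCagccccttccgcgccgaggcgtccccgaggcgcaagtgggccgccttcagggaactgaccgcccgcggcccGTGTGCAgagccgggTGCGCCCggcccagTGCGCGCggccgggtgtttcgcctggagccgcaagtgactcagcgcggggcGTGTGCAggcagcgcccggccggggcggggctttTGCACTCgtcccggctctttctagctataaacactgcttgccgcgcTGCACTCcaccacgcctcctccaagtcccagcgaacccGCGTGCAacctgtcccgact
Each motif was searched on both strands of 35116 promoters of the same length. GCGTG was present in 36.5% of them, TGACNNNGC in 13.3% and TGCNCNC in 55.9%, so a single match sets a promoter little apart. MT1X held 4 matches to TGCNCNC and MT2A held 8, numbers reached or passed by 2.94% and 0.0712% of promoters. CYP1A1 held 1 match to GCGTG and GCLM 1 to TGACNNNGC, while the NRF2 targets NQO1, OSGIN1, SRXN1, AKR1C1, AKR1C2 and ABCC2, all higher with Cimicifugae, held 0 of the latter in this window. TXNRD1, an NRF2 target also higher with Cimicifugae, held 2 matches to TGACNNNGC. TIPARP, an AhR target that did not pass, held 2 matches to GCGTG, and the AhR targets AHRR and CYP1A2 held 1 and 0. SLC30A1 held 2 matches to TGCNCNC. Where a gene had more than 1 entry the first was read. A match is a run of letters and not a measured binding site. HMOX1, AKR1B10, MT1F, MT1E, MT1G, MT1M and IGFBP1 had no entry in the promoter table.

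CYP1A1, HMOX1 and 10 of 12 NRF2 targets of glutathione and thioredoxin metabolism were higher with Cimicifugae than with Citri, and 6 metallothioneins, 10 of 22 mitosis genes and the chaperone HSPA5 were higher with Citri. Of 16675 genes tested, 679 (4.07%) differed at an edgeR quasi-likelihood adjusted p under 0.05. Of these, 481 (2.88%) were higher with Cimicifugae and 198 (1.19%) with Citri. Most differences were small. Among the called genes 85.1% lay under 1.5-fold, their median absolute log2 fold change was 0.29, and 29 genes (0.174%) reached 2-fold, 23 (0.138%) higher with Cimicifugae and 6 (0.036%) with Citri. The 3 libraries of one extract lay wholly above the 3 of the other in 3860 genes (23.1%). The number of called genes was 438 without replicate 3 of Citri and 444 without its replicate 1. It was 1256 (757 higher and 499 lower) when replicate 3 of Bupleuri at its low dose was left out, which is in neither group compared but enters the filter and the shared estimate of spread, and 1338 (779 and 559) in a fit of this title set alone.

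**Figure D1:**
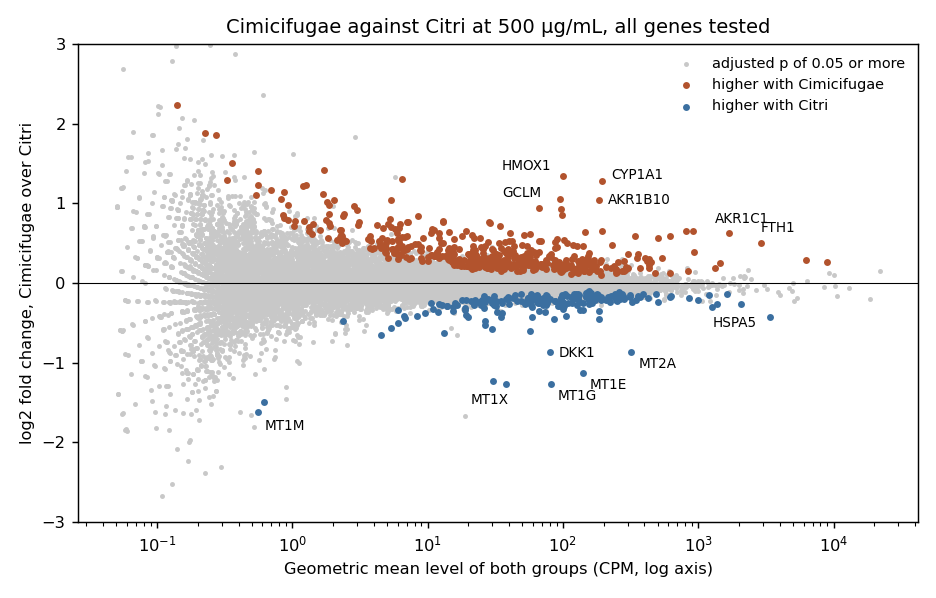
Each point is 1 gene; the x axis is the geometric mean of both groups' levels in CPM (log axis) and the y axis the log2 fold change of Cimicifugae over Citri at 500 µg/mL, with genes at an edgeR adjusted p under 0.05 in colour. HMOX1 and CYP1A1 stand out on the upper side at 1.35 and 1.28 and metallothioneins on the lower side; 140 genes outside the axes are not drawn, 0 of them called.

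The 6 libraries differed in more than treatment. Totals ran from 27117948 to 29549531 counts with Cimicifugae and from 22014573 to 26654856 with Citri, without overlap, so low counts were less precise with Citri. Mitochondrial rRNA took 3.05% ± 0.156 of counts with Cimicifugae and 2.68% ± 0.119 with Citri (SD, n = 3 each; exact permutation test, two-sided, p = 0.1, the smallest that 3 against 3 allows). Mitochondrial mRNA took 6.55% ± 0.308 with Cimicifugae and 6.98% ± 0.100 with Citri, also without overlap (SD, n = 3 each; exact permutation test, two-sided, p = 0.1). The part of depth and of these shares in the results was not tested. All 13 hepatocyte markers were at 39.4 CPM (counts scaled to library size) or more in each of the 6 libraries, and 0 of them were called. Of 15 markers of other cell types, 12 stayed under 1 CPM, and 5 of these, PTPRC, CD3E, DCN, LUM and HBB, had 0 counts. The summed level of the 15 was 1558 to 1698 CPM with Cimicifugae and 1359 to 1384 CPM with Citri, nearly all of it lysozyme (LYZ). LYZ was higher with Cimicifugae (log2 0.26 ± 0.07, edgeR adjusted p 0.0132) and lost the call without replicate 1 or 2 of Cimicifugae or replicate 2 of Citri (up to 0.0832).

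AhR targets had the highest list median. CYP1A1 (ENSG00000140465, chromosome 15, 74719542 to 74725610, GRCh38), the monooxygenase used as the standard readout of the receptor, stood at 309.6, 307 and 297 CPM with Cimicifugae and at 134, 128 and 114 CPM with Citri. Vehicle had 12.9 ± 0.704 CPM (SD, n = 3), so both extracts were far above it, and Cimicifugae was 2.43-fold above Citri (log2 1.28 ± 0.11 SE, edgeR adjusted p 2.1e-11). AHRR, the repressor that AhR induces against itself, was at 1.78, 1.76 and 1.90 CPM against 0.971, 0.621 and 0.722 CPM (log2 1.21 ± 0.21, edgeR adjusted p 6.41e-05). In both genes the Cimicifugae libraries lay above all Citri libraries. ALDH3A1, an aldehyde dehydrogenase, was at 2.61 ± 0.364 CPM against 1.33 ± 0.292 CPM (log2 0.98 ± 0.20, edgeR adjusted p 0.000999).

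Of 8 AhR targets tested, 4 were higher with Cimicifugae and 0 lower, and each of the 4 kept its call with any single library left out. The list median was 0.91, against 0.0002 over all genes tested, and 0.84 without CYP1B1, a relative of CYP1A1 that had 6 counts in all with Cimicifugae and 2 with Citri. NQO1, which NRF2 also drives, was the fourth member called. TIPARP, an ADP-ribosyltransferase that limits AhR, had 22 CPM with Cimicifugae and 21.7 CPM with Citri (log2 0.01 ± 0.09, edgeR adjusted p 0.975). UGT1A6, a glucuronosyltransferase that shares exons with its neighbours so that its reads are uncertain, was the 1 member with a negative value, −1.98 ± 0.83, from 7 counts with Cimicifugae and 24 with Citri, with overlapping libraries (edgeR adjusted p 0.24). CYP1A2, the neighbour of CYP1A1, had 51 counts with Cimicifugae and 24 with Citri and did not pass (log2 0.84 ± 0.38, edgeR adjusted p 0.299). The list median lay between its value and that of ALDH3A1, and ran from 0.70 to 0.96 over other fits.

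Most NRF2 targets of glutathione and thioredoxin metabolism were higher with Cimicifugae. GCLM (ENSG00000023909, chromosome 1, 93885205 to 93909456), the regulatory subunit of the enzyme that starts glutathione synthesis, was at 138, 142 and 131 CPM with Cimicifugae. With Citri it was at 66.8, 64.7 and 65.5 CPM, a little above vehicle at 57.4 ± 2.00 CPM (log2 0.19 ± 0.05, edgeR adjusted p 0.0079). The libraries of the extracts did not overlap, and GCLM was 2.08-fold higher with Cimicifugae (log2 1.06 ± 0.05, edgeR adjusted p 1.9e-20). SLC7A11, the cystine importer that supplies this pathway, was at 86.7, 97.8 and 92.9 CPM against 45.5, 52.3 and 46.6 CPM (log2 0.94 ± 0.08, edgeR adjusted p 2.81e-11). Its vehicle level was 55.8 ± 1.90 CPM, between the extracts.

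Of the 12 genes of this list 10 were higher with Cimicifugae and 0 lower, at a median of 0.47. Of the 10 calls 9 held with any single library left out. Export pumps for conjugates were among them, with ABCC2 at 614 ± 27.3 against 415 ± 14.8 CPM (log2 0.56 ± 0.09) and ABCC3 at 104 ± 3.50 against 72.7 ± 2.43 CPM (log2 0.51 ± 0.05), at edgeR adjusted p of 2.78e-05 and 8.6e-10. OSGIN1, an oxidative-stress growth inhibitor (0.52), GCLC, the catalytic partner of GCLM (0.48), SRXN1, which repairs oxidised peroxiredoxins (0.47), and TXNRD1, the cytosolic thioredoxin reductase (0.36), followed on the log2 scale.

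Most reductases had the same direction. AKR1B10 (ENSG00000198074, chromosome 7, 134527592 to 134541408), which reduces reactive aldehydes, was at 267, 262 and 266 CPM with Cimicifugae and at 130.3, 127 and 129.6 CPM with Citri, with vehicle at 103 ± 1.76 CPM. Its 2.05-fold difference (log2 1.04 ± 0.06, edgeR adjusted p 2.48e-18) was far beyond the spread among libraries. AKR1C1 (2092 ± 46.5 against 1358 ± 38.2 CPM, log2 0.62 ± 0.07) and AKR1C2 (1022 ± 17.8 against 648 ± 14.3 CPM, log2 0.66 ± 0.06) have nearly identical sequences, between which the counting divides reads, so their separate values are uncertain. NQO1 was at 1194, 1130 and 1139 CPM against 755, 717 and 722 CPM, without overlap (log2 0.66 ± 0.06, edgeR adjusted p 1.95e-10).

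Of 11 genes tested in the list of reductases and NADPH supply, 7 were higher with Cimicifugae and 1 lower, at a median of 0.27, and 6 of the 8 calls held with any single library left out. TKT, transketolase of the pentose phosphate pathway, was at 480.2 ± 18.9 against 391 ± 12.6 CPM (log2 0.30 ± 0.05, edgeR adjusted p 1.81e-05).

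HMOX1 (ENSG00000100292, chromosome 22, 35380361 to 35394214), which opens the haem ring and releases iron, carbon monoxide and biliverdin, led the genes higher with Cimicifugae under the naming rule. It was at 163, 160.1 and 153 CPM with Cimicifugae and at 63.5, 61.5 and 62 CPM with Citri, where vehicle had 56.2 ± 0.562 CPM. The groups stood 2.55-fold apart (log2 1.35 ± 0.05, edgeR adjusted p 2.1e-23), with the Citri libraries close to vehicle. FTH1, the ferritin heavy chain that stores iron, was at 3442 against 2433 CPM (log2 0.50 ± 0.07, edgeR adjusted p 2.63e-06). FECH, which inserts iron into haem (0.51), PIR, an iron-binding NRF2 target (0.45), ALAS1, the rate-limiting enzyme of haem synthesis (0.41), and ABCB6, a porphyrin transporter (0.30), were also higher on the log2 scale.

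HAMP, the hormone hepcidin that blocks iron export from cells, was the exception in this list. It was at 47, 50.3 and 41.7 CPM with Cimicifugae and at 74.5, 69.6 and 67.4 CPM with Citri, without overlap, and vehicle had 68.4 ± 0.696 CPM (log2 between extracts −0.61 ± 0.11, edgeR adjusted p 0.000211). In all, 8 of 15 members were higher with Cimicifugae and 1 was lower, at a median of 0.26, and 7 of the 9 calls held with any single library left out. Values of FTH1 and FTL are uncertain because both have processed pseudogenes that can share their reads.

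**Figure D2:**
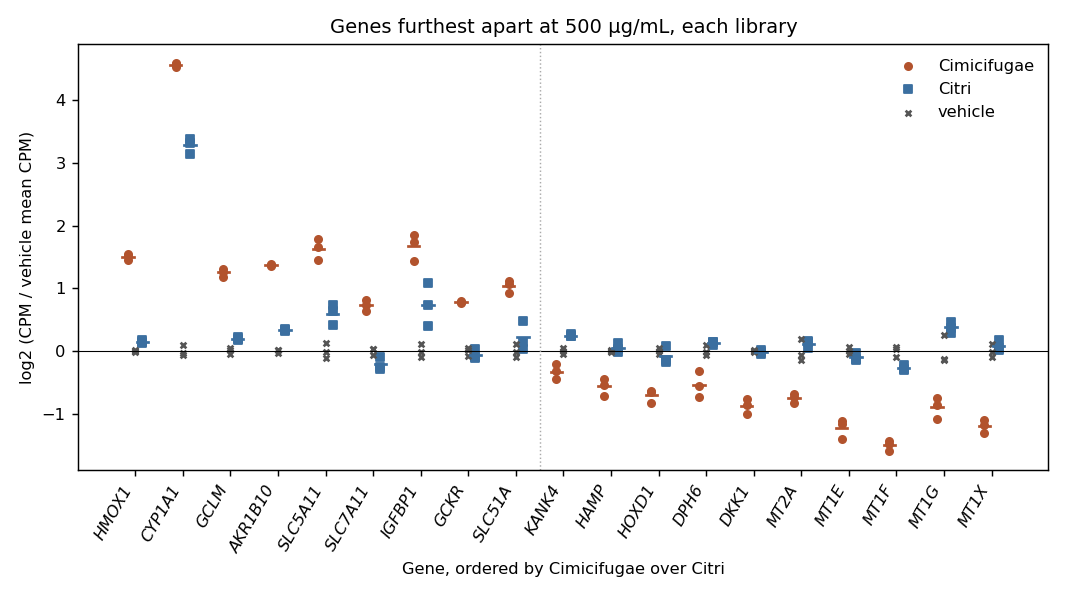
The y axis is the log2 ratio of each library's CPM to the vehicle mean for Cimicifugae, Citri and vehicle libraries, and the genes along the x axis are from the 10 furthest apart in each direction by the naming rule. CYP1A1 lies above vehicle with both extracts and further with Cimicifugae, HMOX1, GCLM and AKR1B10 rise with Cimicifugae while Citri stays closer to 0, and MT1X, MT1F and DKK1 lie below vehicle with Cimicifugae.

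Metallothioneins went the other way. MT1X (ENSG00000187193, chromosome 16, 56682424 to 56684196) was at 26.1, 24.8 and 22.7 CPM with Cimicifugae and at 57.8, 56.9 and 63.1 CPM with Citri. Vehicle had 56.1 ± 4.34 CPM, so the Citri libraries lay near it and the Cimicifugae libraries below it (2.41-fold higher with Citri, log2 −1.27 ± 0.09, edgeR adjusted p 1.28e-13). MT2A (ENSG00000125148, chromosome 16, 56608199 to 56609497) was at 239, 248 and 224 CPM against 443, 439 and 411 CPM, also without overlap (log2 −0.86 ± 0.10, edgeR adjusted p 8.72e-08).

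MT1G (52.4 ± 5.95 against 126 ± 7.68 CPM, log2 −1.27), MT1F (19.9 ± 1.12 against 46.6 ± 1.39 CPM, −1.23) and MT1E (95 ± 9.46 against 207 ± 9.28 CPM, −1.12) were lower with Cimicifugae too. MT1M, with 27 counts in all against 71, had −1.62 ± 0.32 (edgeR adjusted p 0.00086). MT1A did not pass (−0.57, 0.134). These genes are near-identical neighbours on chromosome 16, so the division of reads among them is uncertain. All 6 called members pointed the same way, but with shared reads they are not independent observations.

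The zinc transporters called had mixed directions. They were named after their values were seen, so no rule is drawn from them. SLC30A1, which exports zinc from the cell, was lower with Cimicifugae, at 92.4 against 113 CPM and 129.8 CPM in vehicle (log2 −0.29 ± 0.04, edgeR adjusted p 2.33e-06). The importers SLC39A10 (26.1 against 17.2 CPM, log2 0.60 ± 0.09, edgeR adjusted p 6.2e-06) and SLC39A4 (110.4 against 75.1 CPM, log2 0.56 ± 0.07, 9.91e-08) were higher with Cimicifugae. Of 11 members tested 7 were lower and 2 higher with Cimicifugae, at a median of −0.86, and all 9 calls held with any single library left out.

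Several of the other genes furthest apart encode secreted proteins or metabolic regulators. DKK1 (ENSG00000107984, chromosome 10, 52314296 to 52318042), a secreted WNT antagonist, was at 64.1, 54.5 and 59.9 CPM with Cimicifugae and at 110.3, 109 and 105 CPM with Citri, where vehicle had 109.6 ± 0.998 CPM. The Citri libraries were near the vehicle level, and DKK1 was 1.82-fold higher with Citri (log2 −0.86 ± 0.07, edgeR adjusted p 4.52e-13). Of 13 WNT feedback and β-catenin targets tested 3 were lower and 1 higher with Cimicifugae (median −0.10), and 1 of the 4 calls, DKK1, held with any single library left out. Other genes lower with Cimicifugae were HOXD1, a homeobox factor (10.6 ± 0.794 against 16.5 ± 1.69 CPM, log2 −0.63), DPH6, a diphthamide synthesis enzyme (3.59 ± 0.517 against 5.64 ± 0.100 CPM, −0.65), and KANK4, a KN motif protein (24.7 ± 2.01 against 36.6 ± 0.454 CPM, −0.57).

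IGFBP1 (ENSG00000146678, chromosome 7, 45888357 to 45893668), a secreted binding protein of insulin-like growth factors that insulin represses through FOXO1, was at 110.5, 149 and 138 CPM with Cimicifugae and at 54.2, 68.1 and 86.8 CPM with Citri. The groups did not overlap although each varied widely (log2 0.93 ± 0.13, edgeR adjusted p 5.5e-06, or 0.121 when fitted on the 6 libraries alone). G6PC1, the last enzyme of glucose release (4.06 ± 0.312 against 2.40 ± 0.272 CPM, log2 0.77 ± 0.17, edgeR adjusted p 0.00396), and PCK1, the rate-limiting enzyme of gluconeogenesis (5.99 ± 0.786 against 4.11 ± 0.117 CPM, log2 0.54 ± 0.13, 0.00472, or 0.081 without replicate 2 of Cimicifugae), were higher too. These were the 3 called members among 10 tested (median 0.18). GCKR, the glucokinase regulator, was at 11.3 ± 0.115 against 6.31 ± 0.355 CPM (log2 0.84 ± 0.08, edgeR adjusted p 4.81e-10).

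SLC5A11, an inositol cotransporter, was at 7.75, 8.42 and 6.68 CPM with Cimicifugae against 4.07, 3.27 and 3.79 CPM (log2 1.04 ± 0.11, edgeR adjusted p 4.44e-09). The groups did not overlap. SLC51A, a subunit of a bile acid exporter, was at 6.95 ± 0.494 against 3.98 ± 0.665 CPM (log2 0.81 ± 0.11) and was the 1 called member of 10 bile acid genes. NR1H4, the bile acid receptor FXR known to drive SLC51A, was lower with Cimicifugae (50.4 ± 2.18 against 68 ± 0.954 CPM, log2 −0.43 ± 0.06, edgeR adjusted p 2.63e-06). The transcripts of receptor and exporter thus differed in opposite directions, and the activity of the receptor was not measured.

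Of 15 targets of ATF4, the stress-induced transcription factor, 5 were higher with Cimicifugae and 0 lower (median 0.18, or 0.20 without CHAC1, which had 0 counts with either extract), and 3 of the 5 held with any single library left out. GDF15, a stress hormone that p53 also induces, was at 259.7, 243 and 231 CPM against 166, 148 and 153 CPM (log2 0.65 ± 0.08, edgeR adjusted p 3.02e-07). ASNS, asparagine synthetase, was at 39.8 ± 0.422 against 28 ± 1.09 CPM with vehicle at 43.6 ± 0.657 CPM, so the Citri level was the one further from vehicle (log2 0.51 ± 0.06, edgeR adjusted p 2.27e-07). DDIT3, the apoptosis-linked factor downstream of ATF4, did not pass (log2 −0.04, 0.942). Of 16 p53 targets 3 were higher with Cimicifugae and 0 lower (median 0.04), GDF15 among them, where 2.88% of all genes tested were called higher. CDKN1A, the p21 inhibitor of the cell cycle, was at 92.4 ± 1.72 against 78.9 ± 1.36 CPM with vehicle at 95.2 ± 1.92 CPM (log2 0.23 ± 0.05, edgeR adjusted p 0.00132).

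Transcripts of mitosis leaned to Citri by small amounts. Each of the 22 mitosis genes tested had a lower value with Cimicifugae, at a median log2 of −0.17 against 0.0002 over all genes tested. Such genes can vary together among libraries, so their signs are not separate observations. In this list 10 passed, where 1.19% of all genes tested were called lower. Of the 10 calls 5 held with any single library left out. AURKA, a spindle kinase, was at 195, 188 and 193 CPM against 224, 222 and 222 CPM (log2 −0.21 ± 0.04, edgeR adjusted p 5.55e-05). NUSAP1, a spindle protein (−0.25), and CCNA2, cyclin A2 (−0.21), passed as well. Of 20 DNA replication genes 5 were lower and 0 higher with Cimicifugae (median −0.10), and 3 of the 5 calls held with any single library left out. MCM2, a helicase subunit, led them (177 ± 4.74 against 204 ± 5.00 CPM, log2 −0.20 ± 0.04, edgeR adjusted p 0.000875). In bulk RNA, fewer dividing cells and less of these RNAs per cell cannot be told apart.

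The chaperones of the endoplasmic reticulum had the same direction. All 17 tested had a lower value with Cimicifugae and 4 passed, at a median of −0.15, 2 of them with any single library left out. These signs too are not separate observations, and 1.19% of all genes tested were called lower. HSPA5, the chaperone BiP and a main readout of the unfolded protein response, was at 1146, 1119 and 1160 CPM against 1432, 1399 and 1401 CPM, with vehicle at 1469 ± 10.4 CPM (log2 −0.30 ± 0.03, edgeR adjusted p 4.59e-09). The groups did not overlap. DNAJB11, a cochaperone of it, had −0.25 ± 0.04 (edgeR adjusted p 4.05e-05). Among 13 cytosolic heat shock genes, HSPA8 was the 1 called (−0.14), and lost its call without replicate 1 or 3 of Citri or replicate 1 or 2 of Cimicifugae (edgeR adjusted p up to 0.163).

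Lipid genes leaned to Cimicifugae by small amounts, where 2.88% of all genes tested were called higher. Of 23 genes of cholesterol synthesis and uptake 7 were higher and 0 lower, at a median of 0.15, with 5 of the 7 holding with any single library left out. HMGCS1, the enzyme before HMG-CoA reductase, was at 489, 482 and 491 CPM against 393, 418 and 408 CPM, with vehicle at 498 ± 12.1 CPM (log2 0.26 ± 0.05, edgeR adjusted p 0.000204). DHCR7, the last step to cholesterol, was at 277 ± 4.88 against 232 ± 5.52 CPM (log2 0.26 ± 0.05, edgeR adjusted p 0.000897). Of 15 PPARα targets tested 7 were higher and 0 lower, at a median of 0.13, and 2 of the 7 held with any single library left out. CPT1A, the carnitine transferase that admits fatty acids to mitochondria, was at 61.8, 64.4 and 65.6 CPM against 39.8, 45 and 41.6 CPM (log2 0.60 ± 0.06, edgeR adjusted p 2.2e-10). LPIN1, which makes diacylglycerol (0.31), and ACSS2, which makes acetyl-CoA (0.19), were the 2 called of 14 genes of fatty acid and triglyceride synthesis (median 0.10).

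Autophagy and sugar genes held a few marked members, where 2.88% of all genes tested were called higher with Cimicifugae and 1.19% lower. SQSTM1, the autophagy receptor p62 and an NRF2 target, was at 432, 404 and 429.8 CPM against 293, 271 and 274 CPM (log2 0.59 ± 0.05, edgeR adjusted p 3.68e-12), 1 of 3 higher among 21 genes of its list (median 0.10). Of 26 glycolysis and HIF genes 4 were higher and 1 lower with Cimicifugae (median 0.06), with PFKP, a phosphofructokinase (0.47), and ALDOC, an aldolase (0.41), leading. SLC2A3, the glucose carrier GLUT3, was lower (165 ± 14.1 against 209.5 ± 25.9 CPM, log2 −0.35 ± 0.06, edgeR adjusted p 0.000107, or 0.16 when fitted on the 6 libraries alone). Of 15 transporters of amino acids and sugars 2 were higher and 1 lower, the amino acid carrier SLC6A14 (21.9 ± 0.281 against 31.7 ± 2.22 CPM, log2 −0.53 ± 0.09, edgeR adjusted p 5.23e-05).

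Among conjugating enzymes 3 of 15 were higher with Cimicifugae (median −0.02), where 2.88% of all genes tested were called higher. MGST1, a membrane-bound glutathione transferase, was at 271 ± 13.5 against 195 ± 9.85 CPM (log2 0.48 ± 0.07). Of 9 drug metabolism genes under PXR and CAR 8 had a higher value with Cimicifugae, again not as separate observations. The median of the 9 was 0.25, close to that of the reductases, or 0.21 without a member of few counts. In this list 1 was called, the export pump ABCB1 (0.25 ± 0.07, edgeR adjusted p 0.0211), and it lost the call in 5 of 6 fits with 1 library left out, all but that without replicate 2 of Citri (up to 0.109). ALB, serum albumin, did not pass, at 10080 ± 259.7 against 10370 ± 222 CPM (log2 −0.04, edgeR adjusted p 0.803). Among 18 secreted carriers 2 were higher and 2 lower with Cimicifugae, where 4.07% of all genes tested were called. Of the 4, the protease inhibitor precursor AMBP (0.39) was the 1 that kept its call with any single library left out. Of 14 hepatocyte transcription factors 3 were lower with Cimicifugae (median −0.05), where 1.19% of all genes tested were called lower. The call of 1 of them, NR1H4, held with any single library left out.

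Several lists held few or no called genes, where 2.88% of all genes tested were called higher with Cimicifugae and 1.19% lower. Calls numbered 0 among 13 mitochondrial mRNAs, 27 nuclear complex I subunits, 28 cytosolic ribosomal proteins and 15 clock genes. Of the mitochondrial mRNAs 11 had a lower value with Cimicifugae (median log2 −0.09), and their summed share of counts is among the library differences given above. MT-RNR1, the smaller mitochondrial rRNA, was called (log2 0.29 ± 0.08, edgeR adjusted p 0.0329) and lost the call in 5 of 6 fits with 1 library left out, all but that without replicate 3 of Cimicifugae (up to 0.177). In the other lists 2 of 22 coagulation and complement genes were higher with Cimicifugae. Lower were 1 of 14 cytokine-induced genes and 1 of 12 epithelial genes, each of which held with any single library left out. Of 12 YAP targets 4 were lower, and 0 of these 4 calls held that way. UBD, a ubiquitin-like modifier (10.9 ± 0.569 against 11 ± 0.219 CPM), ANKRD1, a YAP target (29.1 ± 1.67 against 28.1 ± 1.86 CPM), and FGB, fibrinogen β (214 ± 8.92 against 202 ± 4.64 CPM), had log2 differences of −0.02 ± 0.10, 0.05 ± 0.06 and 0.09 ± 0.04 that did not pass.

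**Figure D3:**
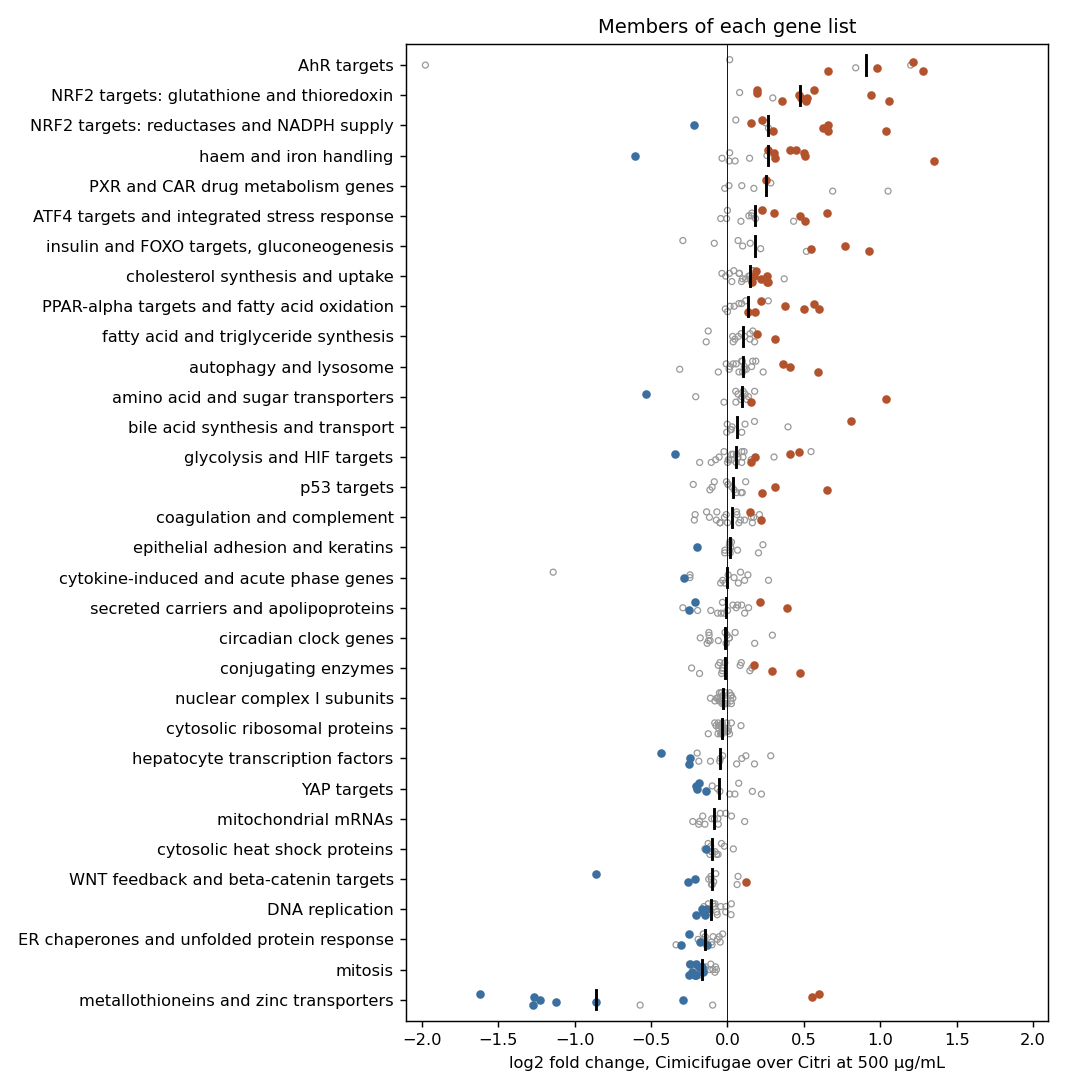
Each row is a gene list and each point a member tested; the x axis is the log2 fold change of Cimicifugae over Citri at 500 µg/mL, filled points have an edgeR adjusted p under 0.05, and the bar is the list median. AhR targets have the highest median (0.91) and metallothioneins and zinc transporters the lowest (−0.86), while ribosomal proteins and complex I subunits sit near 0; 1 member beyond the axis is not drawn.

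The lower doses asked how much of this was present with less extract, in other libraries. At 100 µg/mL 10 genes (0.06%) were called, 3 (0.018%) higher with Cimicifugae and 7 (0.042%) with Citri, and 6 of the 7 were metallothioneins. This balance turned in other fits, with 22 higher and 14 lower in this title set alone, 18 and 14 without replicate 3 of the Bupleuri low dose, 15 and 11 with DESeq2, and 32 and 29 in the 6 libraries compared. MT1X was at 41, 44 and 41 CPM against 70.1, 64.9 and 66.8 CPM (log2 −0.68 ± 0.09, edgeR adjusted p 2.56e-05), and MT1F had −0.59 ± 0.09 (0.000875). CYP1A1 was at 75.6, 64.4 and 66.6 CPM against 41.2, 37.4 and 35.6 CPM (log2 0.85 ± 0.11, edgeR adjusted p 4.57e-05). These 3 genes kept the call with any single library left out. GCLM (0.31), HMGCS1 (0.23), MT1E (−0.58), MT1G (−0.55), MT1M (−1.38) and MT2A (−0.55) lost it without replicate 1 of Cimicifugae at this dose, where 4 genes were called. GCLM, HMGCS1, MT1G and MT2A also lost it without replicate 1 of Citri, MT1G without replicate 3 of either extract (edgeR adjusted p up to 0.159), and HMGCS1 without replicate 2 of either extract or replicate 3 of Cimicifugae and with the replicate number as a block (up to 0.298). The remaining gene was the kinase SGK1 (−0.28 ± 0.04, edgeR adjusted p 0.000866; −0.37 at the high dose), named after its values were seen.

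At 20 µg/mL CYP1A1 was the 1 gene called (0.006%). It was at 29.6, 22 and 21.2 CPM with Cimicifugae and at 13.5, 8.54 and 11.4 CPM with Citri, where vehicle had 12.6, 13.7 and 12.4 CPM (log2 1.11 ± 0.13, edgeR adjusted p 6.08e-06). The Citri libraries overlapped vehicle and the Cimicifugae libraries lay above it. In a fit of this title set alone the adjusted p was 0.144, and in one of the 6 libraries 0.361. In log2 units the difference between extracts in CYP1A1 was 1.11, 0.85 and 1.28 from the lowest dose to the highest, while its level rose with dose in both.

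HMOX1 had 59.2 against 61.4 CPM at 20 µg/mL, 67 against 60.6 CPM at 100 µg/mL and 159 against 62.3 CPM at 500 µg/mL. AKR1B10 had 93.9 against 90.6, 109.9 against 99 and 265 against 129 CPM. Both genes differed mainly at the top dose. MT1X with Cimicifugae was at 57.1, 42 and 24.5 CPM over the rising doses, and with Citri at 67.1, 67.2 and 59.3 CPM. DKK1 with Cimicifugae was at 112, 94.2 and 59.5 CPM, and with Citri at 112, 111 and 108 CPM.

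**Figure D4:**
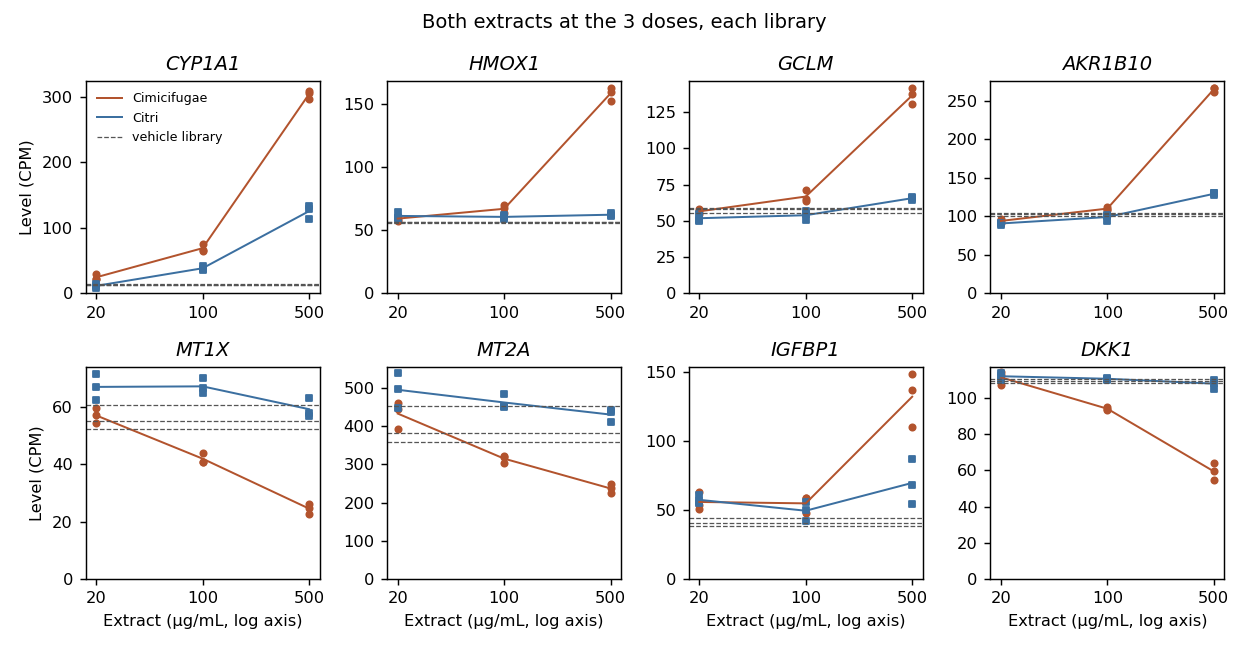
Each panel is a gene; the x axis is the extract dose in µg/mL (log axis), the y axis the level in CPM from 0, points are libraries, solid lines join the means of 3 libraries and dashed lines are the 3 vehicle libraries. CYP1A1 separates at each dose, and HMOX1 and AKR1B10 separate mainly at 500 µg/mL, where Cimicifugae reaches 159 and 265 CPM.

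Whether the difference between extracts changed with dose was tested as the high-against-low response of Cimicifugae minus that of Citri. It passed for 222 genes (1.33%), 166 (0.996%) with a more positive response to Cimicifugae than to Citri and 56 (0.336%) with a more negative one. A more positive response is not always a rise: ASNS with Cimicifugae was at 40.2 and 39.8 CPM at the lowest and the highest dose, and with Citri at 40.5 and 28 CPM. It passed for HMOX1 (log2 1.40 ± 0.07, edgeR adjusted p 4.91e-18), GCLM (0.93, 1.37e-12), AKR1B10 (0.99, 5.57e-12), MT1X (−1.04, 3.98e-07) and DKK1 (−0.85, 3.07e-08). It did not pass for CYP1A1 (0.17 ± 0.17, edgeR adjusted p 0.864). The high-dose libraries enter this test and the high-dose comparison, so the calls are not independent. The count was 136 without replicate 1 of the Citri low dose. It was 554 (321 positive and 233 negative) without replicate 3 of the Bupleuri low dose and 640 (370 and 270) in this title set alone.

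The genes called at the high dose were also read for their sign in the other doses' libraries, which the high-dose contrast did not use. Of the 481 higher with Cimicifugae, 381 (79.2%) had the same sign at 100 µg/mL and 246 (51.1%) at 20 µg/mL. Of the 198 higher with Citri, 172 (86.9%) and 122 (61.6%) did. Over all genes tested the shares were 57.7% and 49.9%. At 100 µg/mL the median log2 difference of the sets was 0.06 and −0.06, so the shared sign there was of small differences.

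Against vehicle, 3694 genes (22.2%) were called with Cimicifugae at the high dose, 12.1% of all tested above and 10% below it. With Citri 2375 (14.2%) were called, 7.73% above and 6.51% below. These comparisons share their vehicle libraries, and vehicle's own title set means that set and exposure cannot be told apart. Without replicate 1 of Citri the second count was 1295, without replicate 1 of vehicle 1387 and without replicate 2 of vehicle 1569. Of the 481 genes higher with Cimicifugae, 361 were called above vehicle with it, 79 were called above vehicle with Citri and 67 below, and 59 were called with neither. Of the 198 higher with Citri, 150 were called below vehicle with Cimicifugae, while with Citri 23 were called above and 41 below, and 27 were called with neither.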

How the data were processed

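RNA of HepG2 cells was sequenced with a directional kit, per the labels' protocols, and the authors deposited expected counts per gene, a unit that need not be whole. FastQC 0.11.9, Trim Galore 0.6.5, STAR 2.7.3a, RSEM 1.3.3 and GRCh38 are named in the submitters' processing notes. RSEM divides reads among similar genes. For the strand setting of counting, no value was given in the sources used here. In all, the table had 60675 genes and 267 columns, of which 60 matched labelled samples and 207 were not used here. Of the values, 8.75% were not whole and were rounded. Of the gene IDs, 56558 matched a symbol.

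Counts of 57 libraries in 22 groups were fitted together (35 residual degrees of freedom) with edgeR 4.0.16 in R 4.3.3, TMM scaling and the quasi-likelihood test, after edgeR's filter retained 16675 genes and dropped 44000. Adjustment ran over all genes tested, by Benjamini-Hochberg at 0.05. Fold changes are Cimicifugae over Citri, CPM values use scaled library sizes, and SE is that of the log2 fold change. Totals of all libraries ran from 18015555 to 29549531 counts.

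Genes named were the 10 furthest apart in each direction among called genes of at least 5 CPM in 1 group whose libraries did not overlap, up to 5 called members of each list and a fixed panel. CYP1B1, UGT1A6, TIPARP, CHAC1, GCLC, SRXN1, TXNRD1, ALAS1, ABCB6, MT1A, SLC30A1, SLC39A4, SLC39A10 and SGK1 were named after their values were seen. A few genes this rule would name are left out and not reported here. The members and the lists were chosen with earlier results of these data known. Alternatives were RLE scaling, no filter, DESeq2 1.42.0, smaller sets of libraries, GC and length offsets, each replicate left out and the replicate number as a block. That block was the number within each title set, or the number alone in comparisons with vehicle. Same-numbered libraries of the high dose deviated together over 9479 genes of at least 10 CPM (r of 0.434, 0.311 and 0.133), and less over all genes (0.135, 0.0956 and 0.0279). Over the former genes a different-numbered pair, replicate 2 of Citri and replicate 3 of Cimicifugae, had 0.148, so pairing by number was not settled. The main fit did not include it, and the fit with a block is given below. The other doses showed no such pattern.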

Additional observations from a re-analysis of the deposited data

Results flagged for a closer look

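The difference between the extracts changed with dose in 18 of the genes furthest apart or in the fixed panel, by edgeR's test of the high-against-low response of Cimicifugae minus that of Citri, on the log2 scale. Over all genes tested 222 (1.33%) passed. The genes furthest apart were picked from the high-dose libraries, which this test also uses, so passing was favoured in advance for them. The response to Cimicifugae was the more positive one for HMOX1 (1.40), SLC5A11 (1.03), AKR1B10 (0.99), IGFBP1 (0.97), GCLM (0.93), SLC7A11 (0.88), GCKR (0.87), SLC51A (0.77) and PCK1 (0.66). It was the more negative one for MT1G (−1.12), MT1F (−1.07), MT1X (−1.04), MT1E (−0.99), DKK1 (−0.85), DPH6 (−0.73), MT2A (−0.67), HOXD1 (−0.58) and KANK4 (−0.58). PCK1 passed narrowly (edgeR adjusted p 0.0492) and kept the call in 6 of 19 settings. DPH6 lost it without replicate 1 of Cimicifugae at the high or the low dose (edgeR adjusted p up to 0.0654). The other 16 kept it in all 19 settings, which reuse high-dose libraries and so are not independent of the choice of genes.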

How the results depend on the processing

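The 679 genes called at the high dose became 1338 (779 higher, 559 lower) in a fit of the title set alone and 1256 (757 and 499) without replicate 3 of the Bupleuri low dose, and ran from 438 to 493 with 1 library left out. The 10 of the medium dose became 84 (31 higher, 53 lower) with no filter, 36 (22 and 14) in the title set, 61 (32 and 29) in the 6 libraries compared, 32 (18 and 14) without the Bupleuri library, 20 (10 and 10) with GC and length offsets and 26 (15 and 11) with DESeq2, and ran from 4 to 11 with 1 library left out. The 1 of the low dose became 49 with no filter, 0 in the title set and 0 in the 6 libraries, and 2 with DESeq2. It ran from 1 to 4 with 1 library left out. In the main edgeR fit 674 of 16675 genes had an unadjusted p under 0.05 at that dose. That is fewer than the cut-off gives by itself where no gene differs. The 222 of the dose-response difference became 640 (370 positive, 270 negative) in the title set and 554 (321 and 233) without the Bupleuri library, and ran from 136 to 225. The 2375 of Citri against vehicle became 4252 in the 6 libraries, 3694 without the Bupleuri library and 1247 with offsets, and ran from 1295 to 1848. The cause was not tested.

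With the replicate number as a block the counts were 686 (640 of them shared) at the high dose, 9 at the medium, 1 at the low, 220 for the dose-response difference, 3778 for Cimicifugae and 2472 for Citri against vehicle. At the high dose, of 103 named genes called, the block ended the call of ALDOA (edgeR adjusted p 0.0639), CDC6 (0.0622), SP5 (0.0609), TEAD4 (0.0595) and VNN1 (0.0735). Over 14 alternatives 60 of the 103 kept their call, 43 lost it in at least 1, and 0 changed direction. Depth limits CYP1A2, CYP1B1 and MT1M, which had few counts.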
